A study of Mus musculus with 18 samples.

Results

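The 7 genes described here encode the sterol regulatory element-binding proteins (SREBPs) and the machinery that releases them from the endoplasmic reticulum: *Srebf1* and *Srebf2* (the SREBP factors), *Scap* (their escort), *Insig1* and *Insig2* (the retention proteins), and *Mbtps1* and *Mbtps2* (the site-1 and site-2 proteases). They were picked by gene symbol and not by their values, though with earlier results of these data known. They are 7 of the 23352 symbols in the tables. All 7 had 1 entry each and a mean of at least 1 FPKM, so all are among the 10835 genes tested.

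SREBPs are transcription factors made as membrane proteins of the endoplasmic reticulum. SCAP carries them to the Golgi in COPII vesicles when sterols are low, and INSIG proteins hold the SCAP-SREBP complex back when sterols are high. In the Golgi, site-1 protease and then site-2 protease cut the precursor, and the released fragment enters the nucleus. In the liver, SREBP-1c, a product of *Srebf1*, is known for the fatty acid synthesis genes and SREBP-2 for the cholesterol synthesis genes. *Insig1*, *Srebf1* and *Srebf2* are themselves known targets of SREBPs, so their mRNA levels and the activity of the pathway are linked. Only mRNA was measured here, and neither protein cleavage nor sterol content can be read from it.

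Poly(A) RNA was sequenced from the livers of 18 male mice on a high-fat diet (HFD), 1 library per mouse. All mice were 20 weeks old, 9 were wild-type (WT) and 9 were *Gpr180*KO, the latter carrying a global CRISPR/Cas9 deletion of exon 6 of *Gpr180* made in C57BL/6J eggs. Because the deletion is present in every tissue, the liver values do not separate hepatic from extrahepatic loss, and the founder line of each mouse was not given in the sources used here. Titles come in 2 styles, "number then HFD" (4 mice per genotype, such as W317HFD) and "hfd then number" (5 mice per genotype, such as KOhfd51). What the styles stand for is not in the labels, so results are also given within each style.

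Values are FPKM, reads scaled to transcript length and to the mapped reads of the library, so levels of different genes can be compared within a library. Between livers a shift of most genes can remain. The factors by which median-of-ratios scaling divides a library ran from 0.85 (KOhfd51) to 1.09 (W317HFD). Summed FPKM per library was 554796 to 718746, the highest in KOhfd51 and the next, 629067, in KO319HFD. The study's methods give an approximate read depth for the samples as a whole and the tables give no read total per library, so the precision of each value was taken from the interval deposited beside it. *Gpr180* itself ranged from 4.46 to 9.24 FPKM in wild-type and from 0.876 to 1.99 FPKM in *Gpr180*KO livers, without overlap (log2 difference -2.0, standard error 0.18, adjusted p = 4.74e-06, limma). The tissue label fitted the marker genes: 5 hepatocyte markers summed to at least 16876 FPKM in every liver, and adipocyte markers to at most 0.0897 FPKM, with *Plin1* at 0. In bulk tissue, fewer cells of a type and less RNA per cell cannot be told apart. The median gene tested had a log2 difference of -0.13 between *Gpr180*KO and wild-type livers, which median-of-ratios scaling between libraries brings to -0.01, so each gene is also described relative to it.

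Values for each gene cover the whole gene. On GRCm38 (mm10) *Srebf1* is listed at chr11:60199089-60220604 (minus strand) with 1 start site, so the 1a and 1c transcripts, which differ in their first exon, cannot be separated. *Srebf2* is at chr15:82147269-82204960, *Scap* at chr9:110333293-110384946, *Insig1* at chr5:28071412-28078662, *Insig2* at chr1:121304353-121332589 with 3 start sites, *Mbtps1* at chr8:119508152-119558761 and *Mbtps2* at chrX:157547822-157598715. All are protein-coding. In the GENCODE annotation 28.4% of the exon bases of *Mbtps2* are shared with *Yy2* on the same strand and 13.2% of those of *Scap* with 5830462I19Rik on the opposite strand. How strand was handled in counting is not given in the sources used here, so reads of these overlaps cannot be assigned to one gene. For *Srebf1* the shared bases were 1.94% on the opposite strand, with *Rai1*, and 1.17% on the same strand, with *Mir6922*, and the other 4 genes shared none.

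The 250 bases before a RefSeq start site (GRCm38.p6) are shown for both factors and both INSIG genes, because the comparisons below set *Srebf1* against *Srebf2* and *Insig1* against *Insig2*. All 7 genes matched the RefSeq table, with 12 start sites in all. *Srebf1* is shown at the third and most downstream of its 3 start sites (chr11:60210472-60210721, minus strand), *Srebf2* at chr15:82147019-82147268 (plus strand), *Insig1* at chr5:28071162-28071411 (plus strand) and *Insig2* at the first of its 3 start sites (chr1:121332590-121332839, minus strand). The 1 start site listed with the *Srebf1* FPKM, at 60220604, lies nearest the second RefSeq start (60220627) and not the one shown. The windows of the first and second *Srebf1* starts held no SRE-like letters. Capitals mark every match, on either strand, to 4 motifs: the SRE-like TCACCCNA (a site of the kind SREBPs bind), the E-box CACGTG, the CCAAT box CCAAT (bound by NF-Y, and written ATTGG where it lies on the opposite strand) and the GC box GGGCGG (bound by SP1, or CCGCCC on the opposite strand).
Srebf1: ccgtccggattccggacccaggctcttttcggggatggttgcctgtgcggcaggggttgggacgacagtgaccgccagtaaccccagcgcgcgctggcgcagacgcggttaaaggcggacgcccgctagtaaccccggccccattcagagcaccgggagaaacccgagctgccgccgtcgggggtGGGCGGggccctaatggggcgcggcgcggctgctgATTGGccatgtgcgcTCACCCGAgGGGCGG
Srebf2: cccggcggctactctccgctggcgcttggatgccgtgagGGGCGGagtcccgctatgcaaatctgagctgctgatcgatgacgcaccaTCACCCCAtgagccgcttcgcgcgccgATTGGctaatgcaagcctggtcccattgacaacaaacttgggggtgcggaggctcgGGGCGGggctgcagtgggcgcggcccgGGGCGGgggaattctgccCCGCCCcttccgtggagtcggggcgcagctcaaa
Insig1: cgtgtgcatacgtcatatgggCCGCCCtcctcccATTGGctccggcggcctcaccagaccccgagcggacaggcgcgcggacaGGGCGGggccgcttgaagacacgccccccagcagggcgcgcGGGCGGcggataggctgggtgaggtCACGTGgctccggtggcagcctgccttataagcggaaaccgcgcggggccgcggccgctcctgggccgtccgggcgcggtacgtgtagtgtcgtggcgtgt
Insig2: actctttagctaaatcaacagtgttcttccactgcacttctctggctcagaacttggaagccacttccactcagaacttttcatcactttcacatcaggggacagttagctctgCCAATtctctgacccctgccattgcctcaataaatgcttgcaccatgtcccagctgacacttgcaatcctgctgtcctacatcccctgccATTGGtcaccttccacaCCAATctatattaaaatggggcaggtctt
Positions are counted back from the base before the start site as -1, and no 2 matches in these windows overlap. The downstream *Srebf1* start held TCACCCGA from -15 to -8, an opposite-strand CCAAT box from -30 to -26 and 2 GC boxes. *Srebf2* held TCACCCCA from -162 to -155, an opposite-strand CCAAT box from -135 to -131 and 4 GC boxes. *Insig1* held an E-box from -101 to -96, an opposite-strand CCAAT box from -216 to -212 and 3 GC boxes, and the SRE-like letters are not in this window. *Insig2* held 3 CCAAT boxes and none of the other letters. Among the 12 windows of the 7 genes, the SRE-like letters occurred in those 2 alone. Of all 32851 RefSeq windows of this length, 3.245% held the SRE-like letters, 6.02% the E-box, 33.85% the CCAAT box and 32.7% the GC box. The motifs were picked after the sequences were seen, and a match is a description of letters only.

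The machinery was unevenly expressed. In wild-type livers the order by mean FPKM was *Insig2* (195.4 ± 59.5), *Insig1* (175.9 ± 34.1), *Srebf1* (69.3 ± 14), *Scap* (29.1 ± 5.69), *Mbtps1* (17.7 ± 0.761), *Srebf2* (14.1 ± 1.46) and *Mbtps2* (2.25 ± 0.379), each mean ± SD over 9 livers. Neighbours in this order were compared within each liver by a two-sided exact sign-flip permutation test on log2(FPKM + 0.1). *Insig2* and *Insig1* did not differ beyond their spread (exact permutation p = 0.406, *Insig2* higher in 6 of 9 livers). Each of the other 5 steps went the same way in 9 of 9 livers (permutation p = 0.00391, the smallest that 9 livers can give, adjusted p = 0.00469 over 6 pairs). The smallest of these steps was that of *Mbtps1* over *Srebf2*, 1.26-fold on the log2(FPKM + 0.1) scale. The order was taken from these same livers, and the p-values measure only the spread between livers. An error in FPKM that a gene carries in every library, such as from the shared exon bases of *Mbtps2*, would not show in them. In *Gpr180*KO livers the order of the means was the same, and *Insig2* exceeded *Insig1* in 8 of 9 livers, by 1.5-fold (permutation adjusted p = 0.00781).

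**Figure D1:**
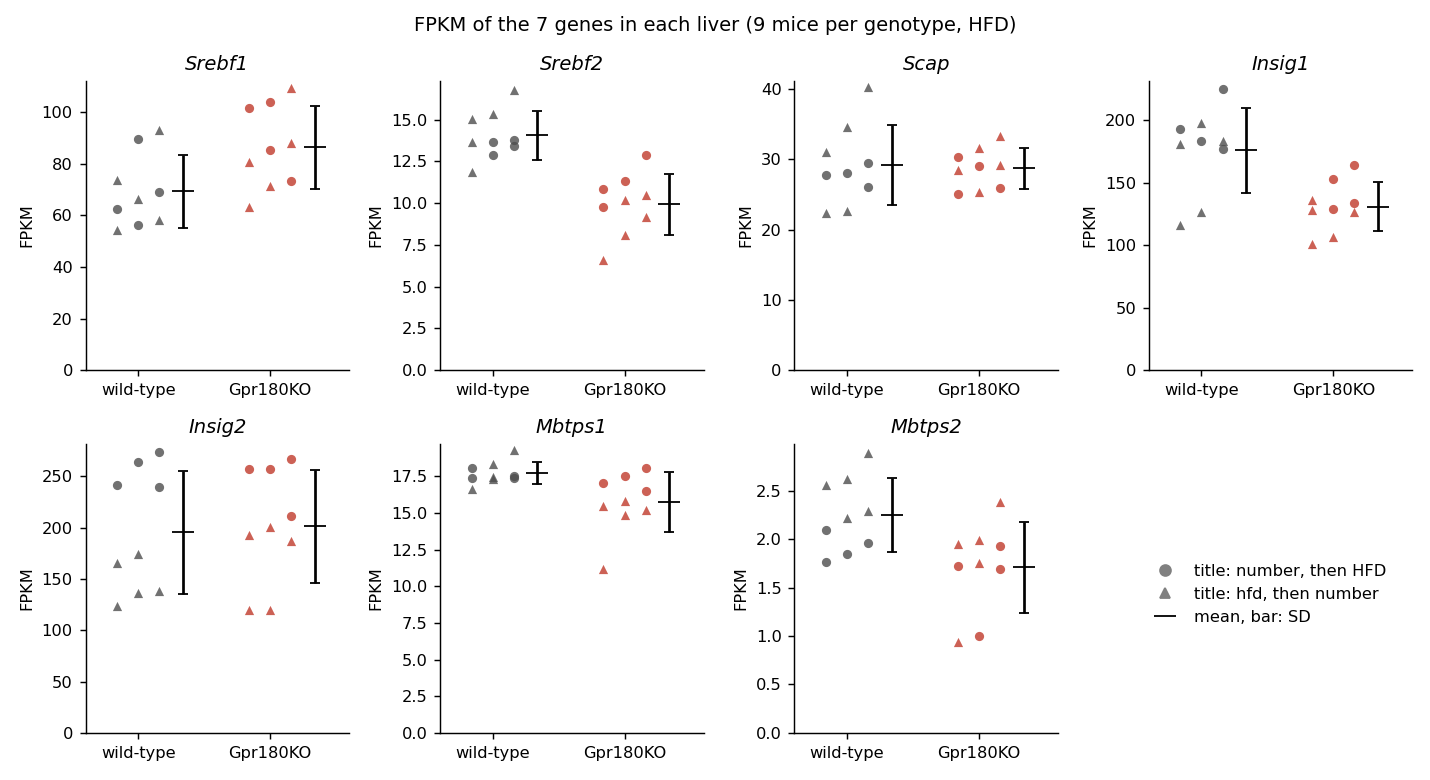
FPKM (vertical axes, from 0) of each of the 7 genes in the 9 wild-type (grey) and 9 *Gpr180*KO livers (red), with circles for titles with the number before HFD, triangles for the other style, and the mean and SD at the side. *Srebf2* in *Gpr180*KO livers reached 12.9 FPKM at most and lay below the wild-type minimum of 11.9 in 8 of 9 livers, while *Scap* and *Insig2* overlapped throughout.

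Between genotypes, 1 of the 7 genes passed limma's threshold, *Srebf2*, which was lower in *Gpr180*KO livers. None was called higher. Over all genes tested, 4.73% were called, 4.28% lower and 0.452% higher. At an unadjusted p under 0.05, 5 of the 7 passed, where 22.2% of all genes did. These were *Srebf2*, *Insig1*, *Mbtps2* and *Mbtps1* with negative differences and *Srebf1* with a positive one, while *Scap* and *Insig2* had estimates near 0.

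*Srebf2*, the cholesterol-pathway factor, ranged from 11.9 to 16.8 FPKM (median 13.7) in wild-type livers and from 6.59 to 12.9 FPKM (median 10.2) in *Gpr180*KO livers. Of the 9 *Gpr180*KO livers, 8 were below the lowest wild-type liver, and the exception was KO319HFD. The lowest value of all was that of KOhfd51. The mean fell from 14.1 ± 1.46 to 9.93 ± 1.83 FPKM (SD, n = 9 each), 70.7% of wild-type, with a log2 difference of -0.51 (standard error 0.11, 95% interval -0.73 to -0.29, adjusted p = 0.0159, limma). Relative to the median gene the difference was -0.39. With median-of-ratios scaling the log2 difference was -0.39 (adjusted p = 0.0313), where 2.61% of genes were called, and without KOhfd51 and KO319HFD it was -0.49 (adjusted p = 0.00777). *Srebf2* had rank 68 by p among the 10835 genes.

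*Srebf1*, which encodes SREBP-1a and SREBP-1c, had a difference of the opposite sign that did not pass. Its FPKM ranged from 54.5 to 92.9 (median 66.2) in wild-type and from 63.1 to 109.3 (median 85.4) in *Gpr180*KO livers. The groups overlapped over most of their range, but 8 of 9 *Gpr180*KO livers exceeded the wild-type mean and 3 exceeded the highest wild-type liver. The *Gpr180*KO mean, 86.3 ± 16 FPKM, was 124.6% of the wild-type mean of 69.3 ± 14 FPKM (SD, n = 9 each). The log2 difference of 0.32 (standard error 0.12) did not pass the adjusted threshold (adjusted p = 0.138, limma, unadjusted 0.0186). It passed with weights per library (0.37, adjusted p = 0.0372) and with median-of-ratios scaling plus title style as a block (0.44, adjusted p = 0.0430), the latter chosen after seeing the data. Of the 10835 genes tested, 1331 and 638 were called in these 2 settings, where 513 were called in the main fit. A ratio of 2 genes within a liver does not depend on the scaling between libraries.

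The ratio of *Srebf1* to *Srebf2* FPKM ranged from 3.94 to 6.52 (median 4.81) in wild-type livers. Among the *Gpr180*KO livers the range was 6.02 to 12.2 (median 8.71). All 9 *Gpr180*KO livers lay above the wild-type mean, and 7 of them above the highest wild-type liver. The mean rose from 4.93 ± 0.899 to 8.92 ± 2.12 (SD, n = 9 each), a log2 difference of 0.83 (standard error 0.14, 1.78-fold, two-sided exact permutation p = 0.000206, adjusted p = 0.000617 over 3 ratios). With genotype permuted within title style the exact p was 0.000454. In the first style alone the difference was 0.67 (exact p = 0.0571, smallest possible 0.0286) and in the second 0.97 (exact p = 0.0159, smallest possible 0.00794).

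**Figure D2:**
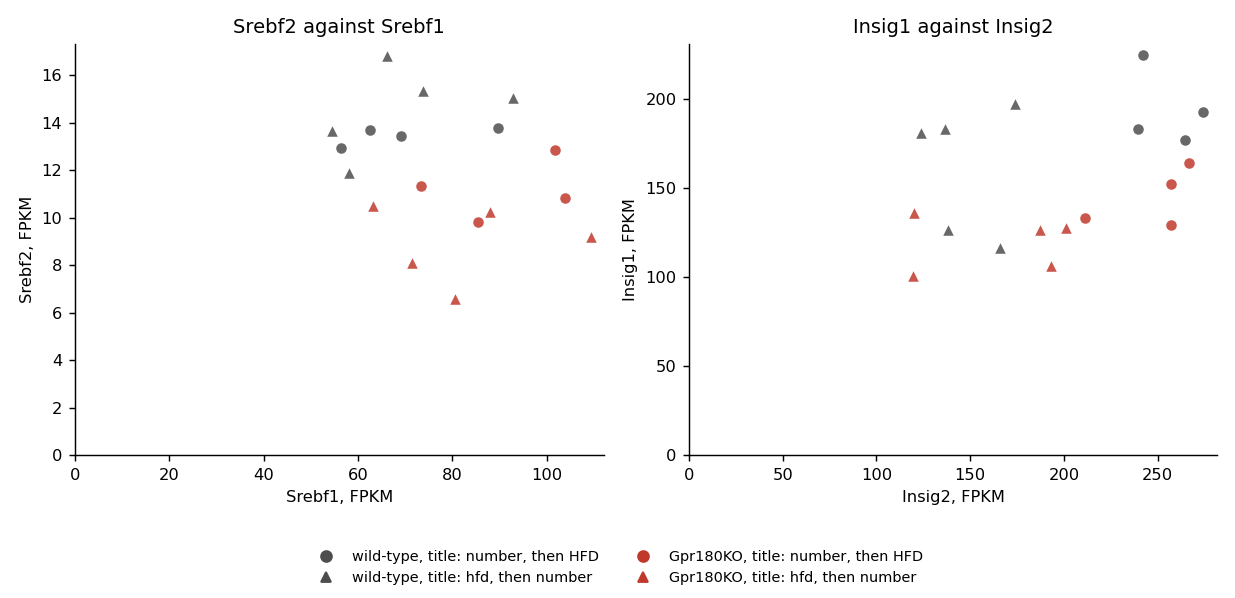
FPKM of *Srebf2* against *Srebf1* (left) and of *Insig1* against *Insig2* (right), 1 point per liver, grey for wild-type and red for *Gpr180*KO, with circles and triangles for the 2 title styles and all axes from 0. In *Srebf2*, 8 of 9 *Gpr180*KO livers lie below the lowest wild-type liver, KO319HFD being the exception, and in the right panel the title styles separate along *Insig2*.

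*Scap*, the escort that senses sterols, did not separate the genotypes. It ranged from 22.3 to 40.3 FPKM (median 28.0) in wild-type and from 25.0 to 33.3 FPKM (median 29.0) in *Gpr180*KO livers, entirely within the wild-type range. The means were 29.1 ± 5.69 and 28.7 ± 2.87 FPKM (SD, n = 9 each), and the log2 difference was -0.005 (standard error 0.10, 95% interval -0.22 to 0.21, adjusted p = 0.982, limma). The sign of this estimate turns with the scaling, to 0.12 with median-of-ratios and 0.09 with 75th percentile scaling.

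*Insig1*, the retention protein gene that SREBPs induce, ranged from 116.5 to 225.0 FPKM (median 183.3) in wild-type livers and from 101 to 164 FPKM (median 129.2) in *Gpr180*KO livers. Every *Gpr180*KO liver lay under the wild-type mean, and 7 of 9 wild-type livers were above the highest *Gpr180*KO liver. The other 2, WThfd131 and WThfd134, lay within the *Gpr180*KO range. The means were 175.9 ± 34.1 and 130.8 ± 19.8 FPKM (SD, n = 9 each), the second 74.4% of the first. The log2 difference was -0.41 (standard error 0.12, 95% interval -0.67 to -0.16) with an adjusted p of 0.0533 in limma, just outside the threshold, and an unadjusted p of 0.00284. With title style as a block it passed (adjusted p = 0.0170), where 10.6% of all genes and 2 of the 7 passed, and with median-of-ratios scaling it did not (-0.29, adjusted p = 0.175). All 18 *Insig1* values lay outside the interval deposited beside them, which was so for none of the other members and for 14.2% of all values of at least 1 FPKM, so those intervals were not used for *Insig1*.

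*Insig2*, the second retention protein gene, ranged from 123.7 to 274.2 FPKM (median 174.0) in wild-type and from 119.6 to 266.8 FPKM (median 200.9) in *Gpr180*KO livers. The genotypes covered the same range. The means were 195.4 ± 59.5 and 201.6 ± 55.0 FPKM (SD, n = 9 each), with a log2 difference of 0.05 (standard error 0.19, 95% interval -0.35 to 0.45, adjusted p = 0.887, limma). The wide interval goes with a gap between title styles. In wild-type livers *Insig2* was 239.6 to 274.2 FPKM in the first style and 123.7 to 174.0 FPKM in the second. In *Gpr180*KO livers it was 211.4 to 266.8 and 119.6 to 200.9 FPKM. The first style was above all of the second in both genotypes, as were 3.73% of all genes tested. Within the first style alone the genotype difference was -0.04 (adjusted p = 0.787) and within the second 0.13 (adjusted p = 0.700).

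The ratio of *Insig1* to *Insig2* ranged from 0.669 to 1.46 (median 0.916) in wild-type and from 0.502 to 1.13 (median 0.631) in *Gpr180*KO livers. The mean ratio fell from 0.958 ± 0.294 to 0.687 ± 0.193 (SD, n = 9 each), and 6 of 9 *Gpr180*KO livers were below the lowest wild-type liver. The log2 difference was -0.47 (standard error 0.18, two-sided exact permutation p = 0.0233, adjusted p = 0.0233 over 3 ratios) and the exact p with genotype permuted within title style was 0.0103. In the second style alone it did not pass (-0.53, exact p = 0.0794). The ratio of *Insig1* to *Scap*, the retention protein to the escort it binds, ranged from 4.50 to 8.11 (median 6.21) in wild-type and from 3.03 to 6.33 (median 4.43) in *Gpr180*KO livers. Its mean fell from 6.11 ± 1.13 to 4.63 ± 1.02 (SD, n = 9 each), with 5 of 9 *Gpr180*KO livers below the lowest wild-type liver. The log2 difference was -0.41 (standard error 0.14, exact permutation p = 0.00852, adjusted p = 0.0128 over 3 ratios), and in the first style alone -0.41 did not pass (exact p = 0.0857).

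**Figure D3:**
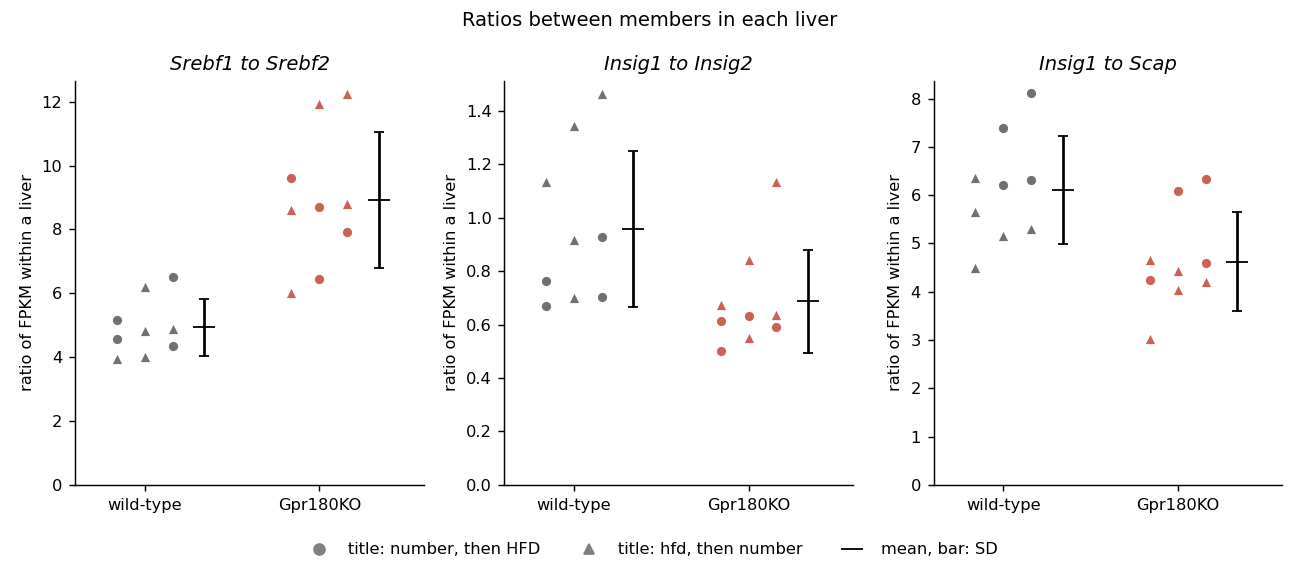
Ratio of FPKM within each liver (vertical axes, from 0) for *Srebf1* to *Srebf2*, *Insig1* to *Insig2* and *Insig1* to *Scap*, with 1 point per liver, circles and triangles for the title styles, and the mean and SD at the side. The first ratio had means of 4.93 in wild-type and 8.92 in *Gpr180*KO livers, and the other 2 were lower in *Gpr180*KO livers (0.958 and 0.687, 6.11 and 4.63).

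*Mbtps1*, the gene of site-1 protease, which makes the first cut, was the steadiest of the 7 in wild-type livers, with 16.6 to 19.3 FPKM (median 17.5) and a coefficient of variation of 4.30%. In *Gpr180*KO livers it ranged from 11.2 to 18.1 FPKM (median 15.8), and 6 of 9 were below the lowest wild-type liver. The lowest, KOhfd51 with 11.2 FPKM, stood apart from the next at 14.9 FPKM. The means were 17.7 ± 0.761 and 15.7 ± 2.03 FPKM (SD, n = 9 each), and the log2 difference of -0.18 (standard error 0.08, adjusted p = 0.187, limma) was close to that of the median gene. With median-of-ratios scaling it was -0.06 (adjusted p = 0.689).

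*Mbtps2*, the gene of site-2 protease, had the lowest level, 1.76 to 2.89 FPKM (median 2.22) in wild-type and 0.939 to 2.38 FPKM (median 1.76) in *Gpr180*KO livers. In *Gpr180*KO livers 5 of 9 were below the lowest wild-type liver, and the 2 lowest were KOhfd51 (0.939) and KO319HFD (1.005), the libraries with the highest FPKM sums. The means were 2.25 ± 0.379 and 1.71 ± 0.466 FPKM (SD, n = 9 each), and the log2 difference of -0.41 (standard error 0.16, adjusted p = 0.137, limma) did not pass. Without those 2 libraries, left out after seeing the data, it was -0.21 (adjusted p = 0.218). At this level the deposited interval spanned 14.6 to 26.8% of the value to either side.

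**Figure D4:**
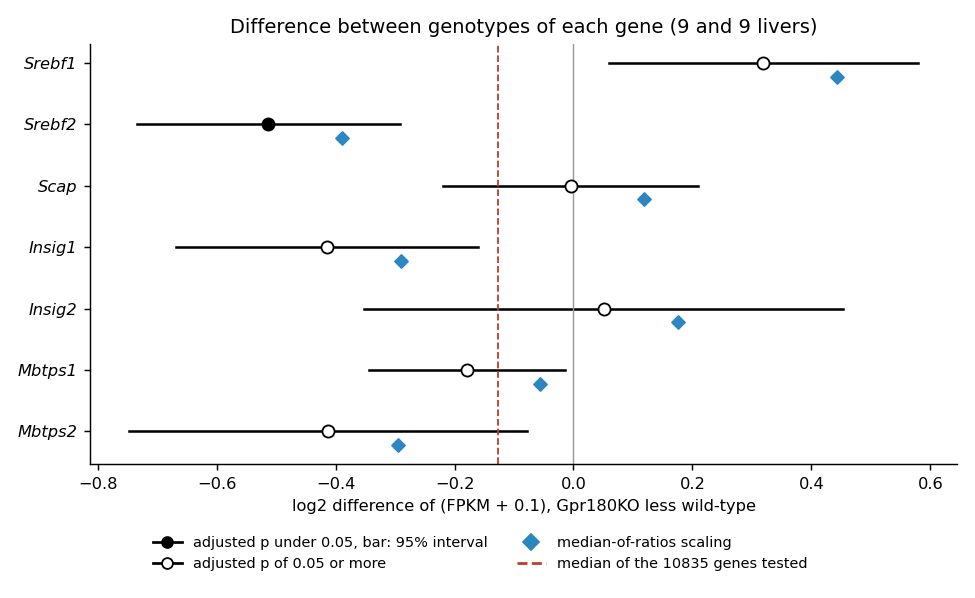
Log2 difference of (FPKM + 0.1) between 9 *Gpr180*KO and 9 wild-type livers for each gene (horizontal axis) with its 95% interval, filled where the adjusted p was under 0.05, and the same with median-of-ratios scaling as diamonds. *Srebf2* at -0.51 is the only filled point, *Srebf1* at 0.32 the only positive one whose interval does not reach 0, and the dashed line is the median gene at -0.13.

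The direction of *Srebf2* was the same in both title styles. Its means were 13.5 and 11.2 FPKM in the first style and 14.5 and 8.91 FPKM in the second, wild-type before *Gpr180*KO. All *Gpr180*KO livers were below all wild-type livers within each style, a pattern that 1.18% of the genes tested showed and that no other member did. In the first style the margin was small. KO319HFD had 12.86 FPKM (deposited interval 11.48 to 14.07) and W319HFD 12.91 FPKM (11.77 to 13.80). The log2 differences were -0.27 (adjusted p = 0.0884) and -0.71 (adjusted p = 0.0896), neither past the threshold over all genes with 4 or 5 livers per genotype. The difference between the styles had an unadjusted p of 0.0281 and an adjusted p of 0.631 (limma interaction term). For *Insig1* the differences were -0.43 and -0.41 (adjusted p = 0.0454 and 0.232). For *Mbtps1* they were -0.02 and -0.30 (interaction, adjusted p = 0.650). None of the 7 genes passed the interaction test, and of all genes tested 0.0% did, with 833 at an unadjusted p under 0.05.

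How the members varied together was described by the correlation of log2(FPKM + 0.1), less the genotype mean, over 18 livers, which share library, scaling and title style. *Srebf1* went with *Insig1* (Pearson r = 0.68, 0.63 within wild-type and 0.77 within *Gpr180*KO livers), the second highest r of the 21 pairs. *Srebf1* and *Srebf2* had an r of 0.28. The highest was 0.71, for *Srebf2* and *Mbtps1*, which was -0.36 within wild-type and 0.89 within *Gpr180*KO livers, and 0.22 without KOhfd51 and KO319HFD. *Insig1* and *Insig2* had an r of 0.49, which was 0.01 once the title style mean was removed as well.

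By the same measure the gene most like *Srebf1* was *Llgl2* (r = 0.78, and 0.80 without those 2 libraries), followed by *Tle2* (0.74) and *Tnks1bp1* (0.72). For *Srebf2* the closest were *Phka2* (0.93, and 0.82 without them), *Tlr5* (0.92) and *Znf512b* (0.92). *Scap* was most like *Atp5sl* (0.82), 5830473C10Rik (0.79) and *Lpcat3* (0.78). *Insig1* went most closely with *Dlat* (0.90), *Arhgef15* (0.89) and *Hdac3* (0.88), and these 3 lay between 0.90 and 0.92 without the 2 libraries. For *Insig2* they were *Maea* (0.93), 4930506C21Rik (0.93) and *Afg3l1* (0.93), and r fell to between 0.72 and 0.76 once title style was removed. *Mbtps1* was closest to *Stat2* (0.96), *Crim1* (0.95) and 4933426M11Rik (0.94), and *Mbtps2* to *Dek* (0.96), *Yme1l1* (0.94) and *Casd1* (0.94). For the nearest of these, r was 0.83 and 0.92 without the 2 libraries. All genes named here were picked for the highest r among all genes tested, so these r values are selected maxima. Whether any of them exceeds the highest r that chance gives among so many genes was not tested. The values without the 2 libraries or with title style removed reuse the livers that picked the genes and are no independent check.

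The genes around the members were taken from 8 lists, whose counts are to be read beside the shares of all genes. Over all genes tested, 4.28% were called lower and 22.2% had an unadjusted p under 0.05. With title style as a block 10.6% were called, and with median-of-ratios scaling 2.61%. The ER retention and turnover list holds ubiquitin ligases and other proteins that act on SCAP, SREBP or INSIG. It had none of 15 genes called and a median log2 difference of -0.10, close to the median gene. The first gene of this list, *Rnf139*, an INSIG-binding ligase, had 9.58 ± 0.919 FPKM in wild-type and 8.54 ± 1.30 in *Gpr180*KO livers (log2 difference -0.17, adjusted p = 0.265). At an unadjusted p under 0.05, 0 of these 15 passed. The COPII list, the vesicle coat that SCAP rides in, had 0 of 12 called and 4 at an unadjusted p under 0.05, with a median of -0.23, and 2 were called with title style as a block. Of 11 transcription factors known to act on *Srebf* or *Insig* promoters, 2 were called lower. *Nfyb*, a subunit of the CCAAT-binding NF-Y, fell from 13.7 ± 1.36 to 10.9 ± 1.64 FPKM (log2 difference -0.34, standard error 0.09, adjusted p = 0.0407). *Bhlhe40*, an E-box-binding repressor of the circadian system, fell from 31.6 ± 5.92 to 22.4 ± 3.93 FPKM (-0.49, standard error 0.12, adjusted p = 0.0302). Neither passed with median-of-ratios scaling (adjusted p = 0.119 and 0.12). The median of this list was -0.12, that of the median gene, and *Nr1h3*, the liver X receptor gene, had 53.3 ± 5.80 and 57.1 ± 5.50 FPKM (adjusted p = 0.442).

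Of 11 genes for nuclear import, coactivators and degradation of SREBPs, 1 was called lower, with a median of -0.27. It was *Lpin1*, the gene of the phosphatidate phosphatase lipin 1, which mTORC1 is known to keep from restraining nuclear SREBP, at 19.3 ± 4.4 FPKM in wild-type and 12.2 ± 4.62 in *Gpr180*KO livers (-0.72, standard error 0.20, adjusted p = 0.0442). It passed in 5 of 18 leave-one-out fits and not with median-of-ratios scaling (adjusted p = 0.1). *Kpnb1*, the importin that carries SREBP-2 into the nucleus, had a log2 difference of -0.27 (adjusted p = 0.177). Among 7 other substrates of the 2 proteases, 2 were called lower and the median was -0.28. *Creb3l1*, a membrane-bound transcription factor of collagen-producing cells, fell from 1.61 ± 0.579 to 0.610 ± 0.225 FPKM (-1.26, standard error 0.25, adjusted p = 0.0132) and passed in all 18 leave-one-out fits. Its mean in *Gpr180*KO livers is below the minimum of 1 FPKM, so it entered the test through the wild-type livers, where it is high. *Gnptab*, whose precursor site-1 protease cleaves, fell from 3.78 ± 0.526 to 2.74 ± 0.546 FPKM (-0.47, adjusted p = 0.0466), passing in 5 of 18 such fits and not with median-of-ratios scaling (adjusted p = 0.109). *Atf6*, the unfolded-protein sensor cut by the same proteases, had -0.28 (adjusted p = 0.290) and *Atf6b* -0.23 (adjusted p = 0.18).

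Of 22 cholesterol synthesis and uptake targets of SREBP-2, 15 were called lower and none higher, with a median log2 difference of -0.79. *Sqle*, squalene epoxidase, fell from 33.8 ± 12.1 to 10.5 ± 2.89 FPKM (-1.63, standard error 0.22, adjusted p = 0.00157). *Cyp51*, *Idi1*, *Nsdhl* and *Hmgcs1*, which act at other steps of the pathway, had log2 differences of -0.98, -1.17, -0.98 and -1.10 (adjusted p = 0.00637, 0.00677, 0.0112 and 0.0132). *Mvk* and *Fdft1* did not pass (-0.62 and -0.64, adjusted p = 0.0631 and 0.0613). With median-of-ratios scaling 9 of the 22 were called and the median was -0.67. The count was 9, 8 and 9 without W317HFD, WThfd133 and KOhfd53 in turn. All 14 fatty acid targets of SREBP-1 had negative differences, as did 76.95% of all genes tested, and the median was -0.73. With median-of-ratios scaling the median of the 14 was -0.61. Most of them stayed negative, but not all, where 51.08% of all genes were negative. Of the 14, 4 were called lower and none higher, where 4.28% of all genes were called lower. The 4 were *Elovl6*, the elongase of palmitate, *Acss2* and *Acly*, which supply acetyl-CoA, and *Acaca*, acetyl-CoA carboxylase (-0.77, -1.0, -0.66 and -0.63, adjusted p = 0.0147, 0.0146, 0.0424 and 0.0337). *Fasn*, *Acacb* and *Scd1* had -0.81, -0.74 and -0.36 and did not pass (adjusted p = 0.106, 0.0717 and 0.154). With title style as a block 7 of the 14 were called, and with median-of-ratios scaling 2. The count was 2 without any one of W317HFD, W318HFD, W320HFD, WThfd133, KOhfd52, KOhfd53, KOhfd54 and KOhfd56. Beside these list values stand the log2 differences of the factors, 0.32 for *Srebf1* and -0.51 for *Srebf2*. Both lists were chosen with earlier results of these data known and are no independent evidence of direction.

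**Figure D5:**
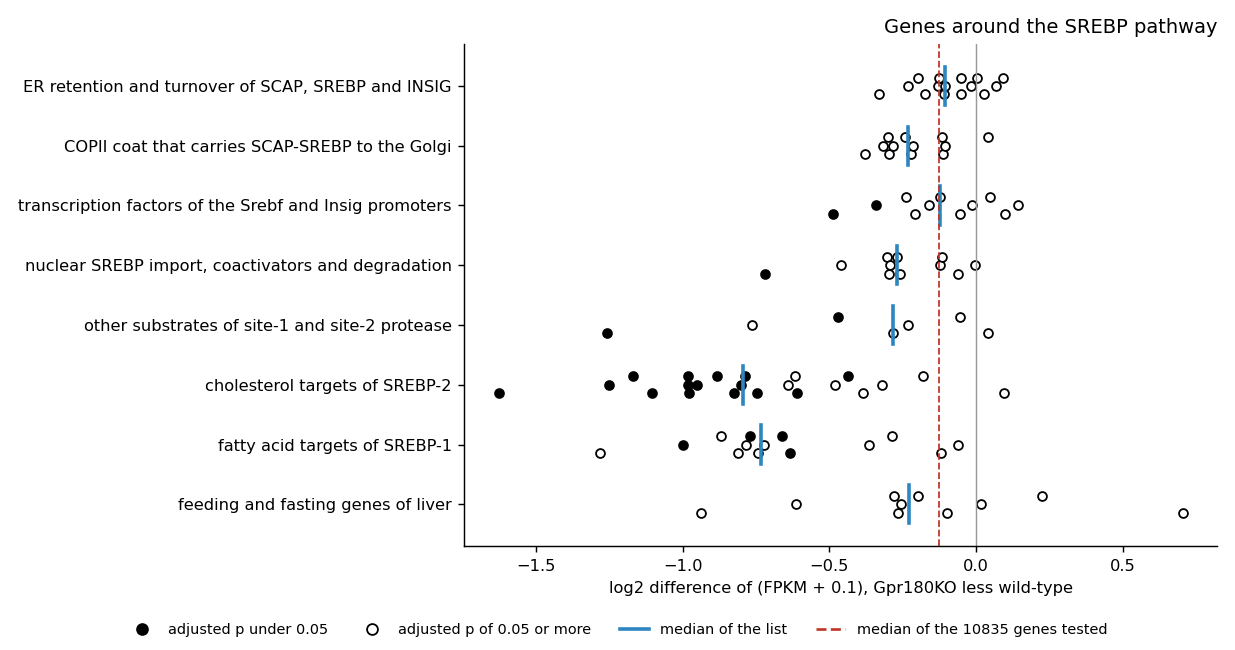
Log2 difference of (FPKM + 0.1) between *Gpr180*KO and wild-type livers (horizontal axis) of every tested gene of the 8 lists, 1 point per gene, filled where the adjusted p was under 0.05, with each list's median in blue and the median of all 10835 genes dashed. The medians of the 2 target lists are -0.79 and -0.73, while those of the other 6 lie between -0.28 and -0.10.

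Within genotype, the mean log2 level of the 22 cholesterol targets went with *Srebf2* (Pearson r = 0.63 over 18 livers, 0.85 without KOhfd51 and KO319HFD) and with *Insig1* (0.62), and r was 0.49 for *Scap* and 0.36 for *Srebf1*. That of the 14 fatty acid targets had its highest r with *Insig1* (0.84, and 0.86 without the 2 libraries), with 0.64 for both *Srebf1* and *Srebf2* and 0.41 for *Scap*. With the title style mean removed as well, *Scap* had 0.62 and 0.66 with the cholesterol and fatty acid targets, *Srebf2* 0.51 and 0.53, and *Insig1* 0.68 and 0.83. *Insig2*, *Mbtps1* and *Mbtps2* had r between -0.20 and 0.11 with the cholesterol targets. These are descriptions over livers that share libraries and title styles.

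In the list of feeding and fasting genes, a reading of the nutritional state at sampling, 0 of 10 were called, with a median of -0.23. Of the 10, 4 had an unadjusted p under 0.05, where 22.2% of all genes did. *Pklr*, pyruvate kinase, had -0.94 (adjusted p = 0.0510), and *Pck1*, the gluconeogenic PEPCK gene, 0.71 (adjusted p = 0.0613). With title style as a block 1 gene of this list was called lower and 1 higher.

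Markers of other cells moved with genotype too. Of 6 stellate cell and fibroblast markers, 4 were called lower (*Col1a1*, *Col3a1*, *Dcn* and *Pdgfrb*), where 4.28% of all genes were. The 6 summed to 131.5 to 264.8 FPKM in wild-type and 74.2 to 128.9 FPKM in *Gpr180*KO livers. Macrophage markers had 1 of 6 called lower (*Cd68*; sums 153.6 to 382.2 and 181.5 to 273.6 FPKM), and of 4 cholangiocyte markers only *Sox9* had the minimum of 1 FPKM, and it was called lower (list sums 2.72 to 6.02 and 1.43 to 3.43 FPKM). Endothelial markers had 0 of 5 called (sums 70.4 to 112.5 and 65.1 to 101.7 FPKM), and lymphocyte markers had 0 called of the 1 tested (sums 3.87 to 10.02 and 3.05 to 5.84 FPKM). Of the 5 hepatocyte markers, *Serpina1c* was called higher, and the highest sum, 34488 FPKM, was in KOhfd51. The part of these differences in the values of the 7 genes was not tested.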

How the data were processed

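Liver poly(A) RNA of 9 wild-type and 9 *Gpr180*KO male mice fed HFD was analysed, with 1 library per mouse and genotype taken from the sample labels. The authors made TruSeq mRNA libraries, aligned single reads to mm10 (GRCm38) with the TopHat Alignment application (Illumina) and deposited its FPKM output per gene. The quantifier within that application and the gene annotation are not given in the sources used here. FPKM divides reads by transcript length and by the library's mapped reads, so a few very abundant genes can shift all others. The methods state an approximate depth for the samples as a whole, and the tables hold neither counts nor read totals per library, so count tests were not used. Each has 23847 entries. FPKM was summed over entries sharing a symbol (252 symbols), and 24 genes with failed estimates, *Alb* among them, were left out.

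The 10835 genes whose mean FPKM reached 1 were compared with limma 3.58.1 (R 4.3.3, eBayes with trend) on log2(FPKM + 0.1) over 18 libraries, adjusted by Benjamini-Hochberg and called below 0.05. Fold changes on this scale understate changes of low genes. Ratios between members were tested by exact two-sided permutation (48620 relabellings) and neighbours in the order of levels by 512 sign flips within livers, with scipy 1.17.1 and numpy 2.4.6 under Python 3.11.15. The limma fits of genotype and of its interaction with title style were tested on simulated data with 200 changed genes. They recovered 91.5% and 92% of these, and 6.63% and 4.66% of the genes called were false. The permutation test of the ratios was compared with that of scipy on random values, and the other steps were not tested on simulated data. The genes named are the 7 members, *Gpr180*, for each list at most 5 called and 3 uncalled genes, and the 3 genes most correlated with each member. The markers named were those called. The values of 1 listed gene are not reported here. The members and lists were chosen with earlier results of these data known. In the lists 4 symbols were matched by RefSeq synonyms. The labels do not say that mice of a genotype came from separate litters or cages, so p-values measure the spread between mice. The fits of members, *Gpr180*, list genes named and list counts were recomputed with a pseudocount of 1 or 0.01, with a minimum FPKM of 0.1, 5 or none, and with TPM, 75th percentile or median-of-ratios scaling. Title style entered as a block or was taken alone, libraries were left out in turn or weighted, and eBayes was run robustly or without trend. Ratios were recomputed with the pseudocounts, within title styles and without each library. Levels in order, marker lists and correlations were not recomputed in these ways, apart from correlations with title style removed or without 2 libraries. Leaving out KOhfd51 with KO319HFD, and median-of-ratios scaling with the block, were added after seeing the data. Gene overlaps came from GENCODE vM21 and promoters from RefSeq (GRCm38.p6).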

Additional observations from a re-analysis of the deposited data

Results flagged for a closer look

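In a Dixon test of the highest and lowest liver on the log2(FPKM + 0.1) or log2 ratio scale, over 22 groups of 9 livers (the 7 genes, *Gpr180* and the 3 ratios in each genotype), 1 liver stood apart. This was the *Gpr180*KO mouse KOhfd51 for *Mbtps1*, at 3.49 on the log2(FPKM + 0.1) scale, whose gap to the next liver was 0.596 of the group's range (critical value 0.493). Chance gives about 1 such group in 20. KOhfd51 also had the highest sum of FPKM of all libraries (718746) and the lowest *Srebf2* and *Mbtps2*. Without it the log2 difference of *Mbtps1* between genotypes was -0.12 and not -0.18, and neither value passed the threshold.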

How the results depend on the processing

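No paired analysis was possible because the mouse numbers in the titles name animals and do not pair the genotypes. *Srebf2* kept its call in every alternative except each title style alone (-0.27 and -0.71). Its log2 difference without each library in turn was -0.56 to -0.44. *Insig1* was called with an FPKM minimum of 0.1 (-0.41), TPM scaling (-0.45), title style as a block (-0.41), the first style alone (-0.43) and weights per library (-0.38), and lay between -0.49 and -0.37 without each library, with a call in 3 of 18 (without WThfd131, WThfd134 or KO321HFD). *Srebf1* was called with weights per library (0.37) and with median-of-ratios scaling plus the block (0.44), and lay between 0.27 and 0.38. Estimates near 0 changed sign. *Scap* was 0.12 with median-of-ratios scaling, with or without the block, 0.089 with 75th percentile scaling, 0.00503 in the second style and between -0.0496 and 0.0562 without each library. *Insig2* was -0.043 in the first style and between -0.024 and 0.14. *Mbtps1* (-0.21 to -0.12) and *Mbtps2* (-0.48 to -0.32) were never called. *Gpr180* lay between -2.07 and -1.90 and was not called in the second style alone (-1.94).

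The number of members called, 1, was 2 with an FPKM minimum of 0.1, TPM scaling, the block, or the block with median-of-ratios scaling, 3 with weights per library, 0 in the second style alone, and 1 to 2 without each library. Of all genes, 513 were called (464 lower, 49 higher), and 283 with median-of-ratios scaling (171 lower, 112 higher). The count was 837 of 14016 with an FPKM minimum of 0.1, 238 of 6742 with 5, and 313 of 23328 with none. It was 573 with TPM scaling, 322 with 75th percentile scaling, 1153 with the block and 638 with the block and median-of-ratios scaling. It was 1331 with weights, 948 without KOhfd51 and KO319HFD, and 578 in the first style alone. In the second style alone it was 0, where 2019 had an unadjusted p under 0.05. Apart from single libraries left out, the settings with 2 or 3 members called also called more of all genes than the main fit. Without each library the count over all genes was 132 to 922. It moved by over 1.5 times without W317HFD (167), W318HFD (169), W320HFD (248), WThfd133 (132), WThfd156 (337), WThfd157 (922), KOhfd51 (778), KOhfd52 (222), KOhfd53 (198) or KOhfd54 (230). List genes called lower, 24 in all, were 11 with no filter, 12 with median-of-ratios scaling, 13 with 75th percentile scaling, 0 in the second style alone and 11 to 29 without each library, the lowest without WThfd133 (11), W317HFD and KOhfd53 (12 each), W318HFD (13), and KOhfd52 and KOhfd54 (14 each). *Acaca* and *Acly* were called in 10 and 6 of those 18 fits, *Nfyb* and *Bhlhe40* in 9 and 12.

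The ratio of *Srebf1* to *Srebf2* lay between 0.77 and 0.90 without each library (log2 difference), and passed except in the first style alone (0.67). That of *Insig1* to *Insig2* lay between -0.56 and -0.38 and passed except in the second style alone (-0.53). That of *Insig1* to *Scap* lay between -0.47 and -0.34 and passed except in the first style alone (-0.41). The smallest exact p in the first style is 0.0286. The causes of these changes were not tested, and with no read totals per library the reads behind low genes such as *Mbtps2* cannot be counted.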
